A study of Mus musculus with 8 samples.

Results

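The genes described here are 8 genes known mainly from other tissues, *Iapp*, *Zp2*, *Ceacam18*, *Neu2*, *Psapl1*, *Clic3*, *Card14* and *Mgat3*, whose chromatin was examined in medullary thymic epithelial cells (mTEC) by ATAC-seq, an assay in which a transposase inserts sequencing adapters into open chromatin. They had been picked from measured accessibility in these same libraries, as genes more open in the population called mTEC-III, so every value that sets mTEC-III against mTEC-II is a description and carries no test. They are 8 of 15695 genes with a merged peak within 10 kb of a transcription start site (TSS), and 27 of 74090 merged peaks were assigned to them, 18 of them within 10 kb. All libraries came from thymi of C57BL/6 mice, dissociated with collagenase, dispase and DNase, and all populations were sorted as CD45-, Epcam+ cells. mTEC-I was further sorted as MHCII low and Itgb4+, mTEC-II as MHCII high, mTEC-III as Ly6D+, and mTEC-IV as MHCII low, Itgb4- and L1cam+. Each population had 2 libraries. No genotype other than the strain, no treatment and no age was given, and nothing says that the libraries of a population came from separate mice, so the spread behind a p-value is that of these libraries and may be technical.

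The description of these genes as opened in mTEC-III held only in part. After scaling by TMM, which sets the bulk of peaks equal between libraries, 7 of the 8 genes (all but *Zp2*) had both mTEC-III libraries above both mTEC-II libraries, as did 14.7% of all genes tested. On the authors' scale, tags per 10000000 of all tags, 4 did, *Neu2*, *Psapl1*, *Card14* and *Mgat3*, and 1.39% of all genes. The genes were chosen on this difference, and nothing is read from these shares. *Psapl1* was most open in mTEC-I and *Mgat3* had its highest mean in mTEC-IV on both scales. On the authors' scale the *Mgat3* mean of mTEC-IV was nearly level with that of mTEC-I (49.0 against 48.9). The genes are therefore called by their names or as the 8 tissue antigen genes.

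Medullary thymic epithelial cells display proteins of many other organs to developing T cells, so that T cells reactive to self are deleted or diverted. Much of this display depends on the regulator Aire in mature cells with high MHCII. Later cells that have passed through the Aire stage take on traits of keratinised epithelium, and mTEC-IV cells resemble the tuft cells of mucosal surfaces. Open chromatin near a gene marks places where regulatory proteins can bind, and is not a measure of its transcript.

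The libraries held between 3606436 tags (mTEC-II replicate 1) and 10374623 tags (mTEC-IV replicate 2). The 2 mTEC-III libraries had the lowest share of tags in merged peaks, 8.44% and 11.003%, against 14.2% to 19.7% in the other 6, and TMM factors of 0.592 and 0.750 against 0.906 to 1.31. The part of this difference in the mTEC-III values below was not tested. Of 5 thymic epithelial genes, 4 had a peak within 10 kb (*Psmb11*, a cortical gene, had none), with summed TMM-scaled values of 410 to 525 tags per 10000000 in the 8 libraries. Mature mTEC genes (6 of 7 with a peak) had mTEC-II sums of 670 and 635, mTEC-III sums of 530.4 and 530 and sums of 331 to 420 elsewhere. The 8 tuft cell genes summed to 501 and 468 in mTEC-IV against 111 to 180 elsewhere. Among T cell genes, *Cd3e*, *Cd3d*, *Cd8a* and *Ptcra* had no peak, and the other 3 summed to 0.543 to 9.89 in mTEC-I to mTEC-III and to 54.4 and 42.6 in mTEC-IV. The B cell list had a peak at 1 of 4 genes, with sums of 28.3 and 25.5 in mTEC-IV and at most 7.13 elsewhere. Myeloid genes had a peak at 3 of 6, with none at *Lyz2*, *Csf1r* or *Itgax*, and had mTEC-II sums of 51.6 and 62.3, mTEC-III sums of 56.0 and 47.9, mTEC-IV sums of 31.9 and 49.0 and mTEC-I sums of 3.995 and 14.1. Genes of differentiated epithelium (7 of 10 with a peak, *Ly6d* of the sort among them) had mTEC-III sums of 234 and 245, mTEC-II sums of 189 and 168, and sums of 243 to 298 elsewhere. Mesenchymal genes (3 of 4, none at *Dcn*) had mTEC-I sums of 176 and 170 and sums of 88.3 to 129 elsewhere. Of 7 islet genes, *Pdx1*, *Nkx6-1*, *Mafa* and *Sst* had a peak and *Ins1*, *Ins2* and *Gcg* did not, with mTEC-III sums of 180 and 169, mTEC-II sums of 162 and 147, and sums of 128 to 217 elsewhere. Of 6 oocyte genes, *Zp1*, *Zp3* and *Figla* had a peak and *Gdf9*, *Nobox* and *Bmp15* did not, with sums of 29.8 to 65.2. Endothelial genes had a peak at 1 of 3, with sums of at most 9.34. The part of these other cell types in the values of the 8 genes was not tested.

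Promoter sequence is shown for 3 genes, *Neu2* and *Psapl1* because a merged peak reaches into the window printed, and *Iapp* because it has no peak within 1 kb. The sequences are those of RefSeq on GRCm38.p6, from 250 bases before to 50 bases after the start, while the peaks below are on mm9 and their coordinates cannot be read against these. RefSeq promoter rows matched 5 of the 8 genes (*Neu2*, *Clic3*, *Psapl1*, *Iapp* and *Ceacam18*). *Neu2* has 3 starts in RefSeq, and the one shown lies beside *Ngef*, since the authors' peak before the *Neu2* start was also annotated as an *Ngef* promoter. Capitals mark matches, on either strand, to TATAAA (the TATA box), TGANTCA (AP-1), AACCNGTT (grainyhead-like), TGTGGT (RUNX) or GGGNNTTCC (NF-kB); the matches do not overlap in these sequences, and positions are those of a match's first base as printed.
Neu2, chr1:87573777-87574076, plus strand: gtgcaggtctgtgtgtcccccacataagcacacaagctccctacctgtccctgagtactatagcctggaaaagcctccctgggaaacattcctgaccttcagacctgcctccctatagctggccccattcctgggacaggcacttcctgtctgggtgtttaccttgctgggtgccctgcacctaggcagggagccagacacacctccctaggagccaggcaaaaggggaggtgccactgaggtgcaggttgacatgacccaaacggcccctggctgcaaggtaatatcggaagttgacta
Psapl1, chr5:36203771-36204070, plus strand: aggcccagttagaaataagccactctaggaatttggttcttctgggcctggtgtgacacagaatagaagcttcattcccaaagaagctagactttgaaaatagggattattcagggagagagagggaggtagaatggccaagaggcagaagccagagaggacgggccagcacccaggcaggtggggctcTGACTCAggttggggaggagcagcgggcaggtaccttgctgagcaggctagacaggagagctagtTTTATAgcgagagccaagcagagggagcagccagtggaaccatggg
Iapp, chr6:142298175-142298474, plus strand: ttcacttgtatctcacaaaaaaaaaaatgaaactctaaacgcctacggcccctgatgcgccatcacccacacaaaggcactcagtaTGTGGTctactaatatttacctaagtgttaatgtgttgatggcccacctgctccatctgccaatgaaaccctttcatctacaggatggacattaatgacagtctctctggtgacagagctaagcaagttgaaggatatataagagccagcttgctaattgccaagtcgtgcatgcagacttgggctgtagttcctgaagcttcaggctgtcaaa

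*Psapl1* held TGACTCA 61 bases before the start and TTTATA, the reverse complement of the TATA letters, 5 bases after it. *Iapp* held TGTGGT 164 bases before its start, and the *Neu2* start shown held none of the 5 motifs. Of the sequences not shown, *Ceacam18* held the TATA letters at 2 places, 154 and 112 bases before the start, and *Clic3* held the RUNX letters at 2, 230 and 155 bases before it. The third *Neu2* start had the TATA letters 31 bases and TGAGTCA 13 bases before it. Among 32851 RefSeq mouse promoters of this length, 13.6% held the TATA letters, 7.81% the AP-1 letters, 2.09% the grainyhead-like letters, 16.8% the RUNX letters and 5.82% the NF-kB letters. The *Neu2* promoter shown had 2 CpG, *Psapl1* 3 and *Iapp* 4, against a median of 7 over all promoters. Their GC content was 57.3%, 54.0% and 44.3%, against a median of 52.7%. These are matches of letters only.

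The peaks of the 8 genes lay both at promoters and away from them. *Neu2*, *Psapl1*, *Card14* and *Mgat3* had a peak within 1 kb of the start (8 peaks), and *Iapp*, *Zp2*, *Ceacam18* and *Clic3* had none. The 18 peaks within 10 kb had a median width of 172 bp (119 to 450), against 159 bp for all merged peaks. The authors' lists called 11 of the 18 in at least 1 mTEC-III library, beside 42.8% of all 31125 merged peaks within 10 kb. For mTEC-I it was 8 of the 18 beside 73.5% of all, for mTEC-II 6 beside 54.8% and for mTEC-IV 6 beside 68.5%. A single library called 6 of the 18. By TMM-scaled mean, mTEC-III was highest at 10, mTEC-I at 5, mTEC-IV at 2 and mTEC-II at 1. Both mTEC-III libraries stood above both mTEC-II libraries at 14 of the 18 peaks after TMM scaling, beside 16.4% of all peaks within 10 kb, and at 7 on the authors' scale, beside 3.75%. Since the genes were chosen for their mTEC-III values, nothing is read from these counts. The 9 peaks farther away are left out of the sums: 4 belonged to *Mgat3*, 2 to *Ceacam18* (10136 and 10302 bp before its start), 2 to *Psapl1* (92506 and 118131 bp before its start, in intron 3 of 26 of *Sorcs2*) and 1 to *Zp2*. The *Mgat3* peak 13407 bp after its start was the clearest of them, at 21.8 and 31.5 in mTEC-I and at most 6.89 in any other library.

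Values below are sums over a gene's peaks within 10 kb, in TMM-scaled tags per 10000000, replicate 1 before replicate 2. Behind each stood between 0 and 132 tags, with a median of 15, so single values carry a large counting error, and the 8 genes together had 133 and 212 tags in the mTEC-III libraries. Sums over different lengths of peak do not compare genes with each other.

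**Figure D1:**
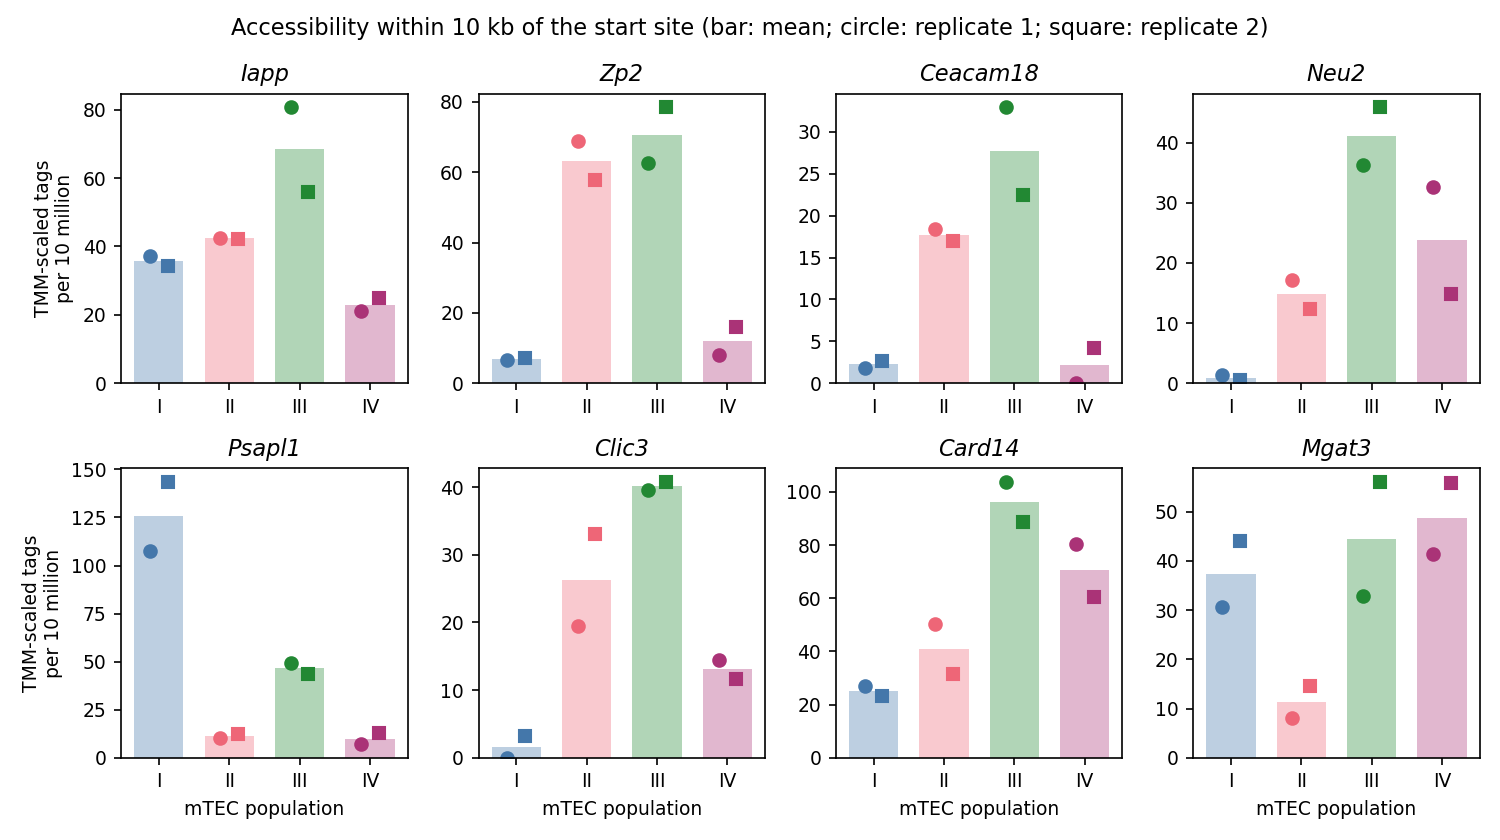
Summed accessibility within 10 kb of the start site (vertical axis, TMM-scaled tags per 10000000) for each gene in the 4 mTEC populations (horizontal axis); bars are means, circles replicate 1 and squares replicate 2. mTEC-III has the highest mean for 6 genes, mTEC-I for Psapl1 (108 and 143) and mTEC-IV for Mgat3 (41.4 and 55.9).

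*Iapp* encodes amylin, the peptide that pancreatic beta cells secrete with insulin. Its only peak lay at chr6:142238098-142238547 (mm9), 8623 bp before its start and in intron 1 of 14 of the neighbouring transporter gene *Slco1a5*, and all 8 libraries called it. *Iapp* in mTEC-III measured 80.7 and 56.1, with 42.5 and 42.3 for mTEC-II, 21.05 and 25.005 for mTEC-IV and 37.3 and 34.2 for mTEC-I. The mTEC-III libraries did not overlap the others, although they differed from each other by more than mTEC-I and mTEC-II did. On the authors' scale the order was lost, since the mTEC-III values of 47.8 and 42.1 overlapped the 51.3 and 44.3 of mTEC-II and the 49.0 and 44.8 of mTEC-I, with mTEC-IV at 24.1 and 22.7.

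*Zp2* encodes a glycoprotein of the zona pellucida, the coat of the oocyte. *Zp2* in mTEC-III measured 62.6 and 78.5, with 68.8 and 57.7 for mTEC-II, 7.97 and 16.0 for mTEC-IV and 6.67 and 7.06 for mTEC-I. mTEC-II and mTEC-III overlapped each other and both stood well above mTEC-I and mTEC-IV, with a mTEC-II mean 9.21 times that of mTEC-I on the TMM scale and 7.98 times on the authors'. Of its 3 near peaks, one at chr7:127286405-127286575 in intron 4 of 17 was highest in mTEC-II, at 42.5 and 33.8, against 16.5 and 51.0 in mTEC-III. The intergenic peak 5197 bp before the start (chr7:127293902-127294100) measured 34.6 and 21.4 for mTEC-III against 20.7 and 16.9 for mTEC-II. A smaller one 5024 bp before it (chr7:127293764-127293892) overlapped between these populations, and a peak 20332 bp away, outside the window, was highest in mTEC-IV.

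*Ceacam18* belongs to the carcinoembryonic antigen family of adhesion molecules. Its near peak, at chr7:50881265-50881477 and 8738 bp before the start in intergenic sequence, was called in both mTEC-III libraries and 1 mTEC-II library. *Ceacam18* in mTEC-III measured 32.9 and 22.4, with 18.4 and 16.9 for mTEC-II, 0 and 4.26 for mTEC-IV and 1.78 and 2.71 for mTEC-I. As at *Zp2*, mTEC-II and mTEC-III were the open populations on both scales, and on the authors' scale their values overlapped, at 22.2 and 17.7 against 19.5 and 16.8. The mTEC-I values rested on 2 and 2.5 tags and the mTEC-IV values on 0 and 4.

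*Clic3* is a member of the chloride intracellular channel family. Its single peak at chr2:25306798-25307090, 5419 bp before the start, lay in intergenic sequence on an LTR repeat of the MaLR class, and was called in both mTEC-III libraries and 1 mTEC-II library. *Clic3* in mTEC-III measured 39.5 and 40.8, with 19.5 and 33.1 for mTEC-II, 14.5 and 11.7 for mTEC-IV and 0 and 3.26 for mTEC-I. mTEC-III was above every other library after TMM scaling, but on the authors' scale its 23.4 and 30.6 overlapped the 23.6 and 34.6 of mTEC-II.

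*Neu2* encodes a cytosolic sialidase, which removes sialic acid from glycans. Its first peak, chr1:89470449-89470608, lay 74 bp before the start and was annotated as the promoter of an *Ngef* transcript. The second, chr1:89471373-89471527, lay 848 bp after the start in intron 1 of 2, like the *Clic3* peak on an LTR repeat of the MaLR class. *Neu2* in mTEC-III measured 36.2 and 45.9, with 17.2 and 12.3 for mTEC-II, 32.7 and 14.9 for mTEC-IV and 1.33 and 0.543 for mTEC-I. mTEC-III lay above the rest on the TMM scale, narrowly so against mTEC-IV replicate 1, and mTEC-I was near 0. On the authors' scale *Neu2* in mTEC-III measured 21.4 and 34.4, within the 37.4 and 13.5 of mTEC-IV. It stayed above the 20.8 and 12.9 of mTEC-II, by a small margin for 1 library. The peaks differed: the one at the start measured 24.7 and 21.4 for mTEC-III against 29.8 and 12.8 for mTEC-IV, while the intron peak measured 11.5 and 24.5 against 2.90 and 2.13. Because the peak at the start also carries the *Ngef* annotation, its tags cannot be divided between the 2 genes.

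*Psapl1*, prosaposin-like, resembles the precursor of the saposins, small proteins that help lysosomal enzymes break down sphingolipids. *Psapl1* in mTEC-III measured 49.4 and 43.8, with 10.3 and 12.3 for mTEC-II, 7.26 and 12.8 for mTEC-IV and 108 and 143 for mTEC-I. mTEC-I was the open population and mTEC-III came second, and no library of these populations overlapped the others. All 3 near peaks kept this order of mTEC-I over mTEC-III: the largest, chr5:36546689-36546979 in exon 1 of 1 and 164 bp after the start, had mTEC-I values of 62.2 and 94.6, mTEC-III values of 14.8 and 24.5, and mTEC-II values of 6.89 and 6.92. The other near peaks lay 470 bp before the start and, in intron 2 of 26 of *Sorcs2*, 1025 bp before it (mTEC-I values 25.3 and 30.98, mTEC-III values 23.1 and 13.2, mTEC-II values 3.44 and 1.54).

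*Card14* encodes a scaffold protein of keratinocytes that couples receptors to NF-kB through Bcl10 and Malt1. *Card14* in mTEC-III measured 104 and 88.7, with 50.5 and 31.5 for mTEC-II, 80.5 and 60.7 for mTEC-IV and 27.1 and 23.4 for mTEC-I. mTEC-III lay above the other 6 libraries after TMM scaling; on the authors' scale it measured 61.4 and 66.5, still above the 61.0 and 33.0 of mTEC-II, by a small margin for 1 library, and within the 92.3 and 54.9 of mTEC-IV. The intergenic peak at chr11:119168656-119169078, 7234 bp before the start, measured 67.5 and 58.1 for mTEC-III against 24.1 and 13.8 for mTEC-II. The promoter peak at chr11:119175758-119176145, 150 bp before it, measured 36.2 and 30.6 against 26.4 and 17.7.

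*Mgat3* encodes the transferase that adds the bisecting N-acetylglucosamine to N-glycans. *Mgat3* in mTEC-III measured 32.9 and 56.0, with 8.04 and 14.6 for mTEC-II, 41.4 and 55.9 for mTEC-IV and 30.7 and 44.0 for mTEC-I. After TMM scaling mTEC-II alone stood low, and the other 3 populations overlapped. On the authors' scale *Mgat3* in mTEC-III measured 19.5 and 42.05, below the 47.4 and 50.6 of mTEC-IV. It stayed above the 9.71 and 15.3 of mTEC-II, with mTEC-I at 40.2 and 57.6. Its 5 near peaks were not alike: the one at chr15:79999904-80000216, 4091 bp before the start, stood at 8.23 and 30.6 in mTEC-III, 23.2 and 30.3 for mTEC-IV, 0 and 1.54 for mTEC-II and 1.33 and 3.26 for mTEC-I. The intron peak 6206 bp after the start instead measured 10.2 and 11.4 in mTEC-I and at most 4.94 in any other library.

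**Figure D2:**
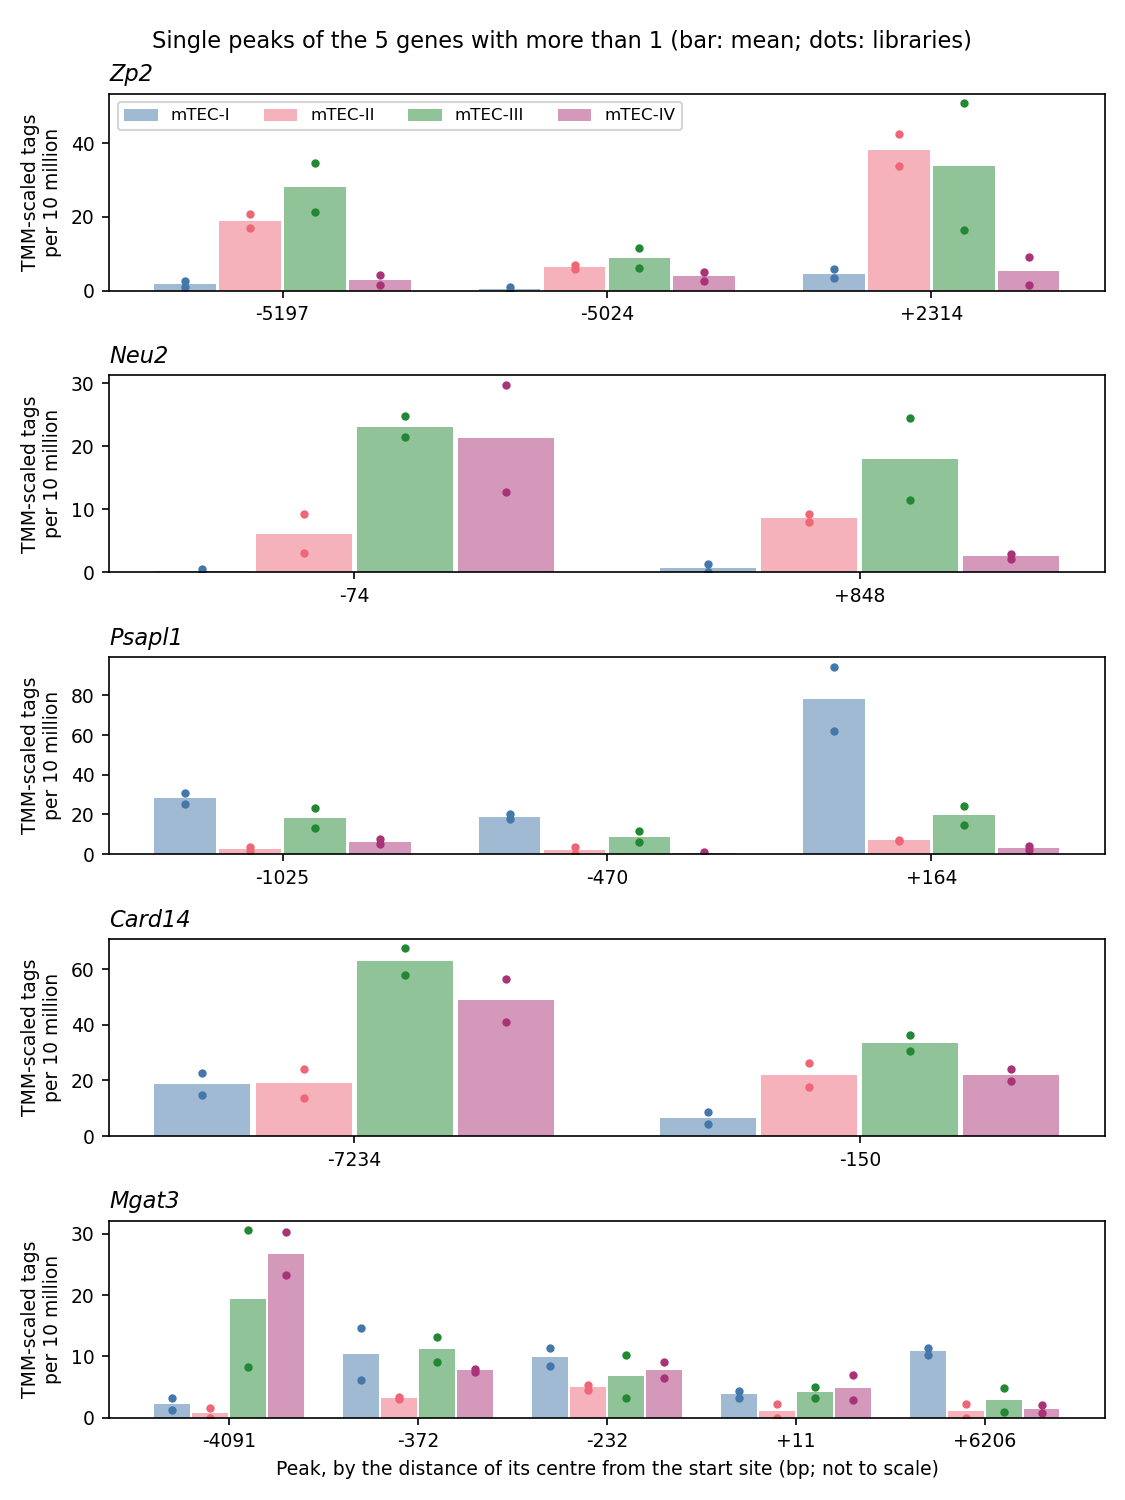
Accessibility of single peaks (vertical axis, TMM-scaled tags per 10000000; bars are means and dots the 2 libraries) for the 5 genes with more than 1 peak within 10 kb, ordered by distance of the peak centre from the start site (horizontal axis, bp, not to scale). The Psapl1 peaks are all highest in mTEC-I, and the Mgat3 peak at -4091 bp is low in mTEC-I and mTEC-II and reaches 30.6 in mTEC-III and 30.3 in mTEC-IV.

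Set against mTEC-II, mTEC-III was higher by log2(value + 1) differences of 1.95 for *Psapl1*, 1.89 for *Mgat3*, 1.42 for *Neu2* and 1.24 for *Card14* after TMM scaling. The differences of *Iapp* (0.65), *Clic3* (0.64), *Ceacam18* (0.60) and *Zp2* (0.15) were smaller. On the authors' scale the first 4 were 1.23, 1.17, 0.70 and 0.50, while *Iapp* (-0.09), *Clic3* (-0.09), *Ceacam18* (-0.12) and *Zp2* (-0.59) turned below 0. The median of the 8 was 0.95 after TMM scaling and 0.21 on the authors' scale, beside medians over all 15085 genes tested of -0.06 and -0.80. All 8 lay above the median of all genes on both scales, and nothing is read from this because they were chosen on this difference.

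Both mTEC-III libraries lay above all 6 other libraries at 2.88% of all genes tested after TMM scaling. Among these were 5 of the 8 genes (*Iapp*, *Ceacam18*, *Neu2*, *Clic3* and *Card14*), and none of the 8 did so on the authors' scale. The 8 were chosen for their mTEC-III values, and nothing is read from these counts. Across all genes limma called 0.00663% higher and 0% lower in mTEC-III than in mTEC-II at an adjusted p of 0.05, that is 1 gene, *Mir101c*, and 0 genes. At an unadjusted p under 0.05 it had 1846 genes, edgeR 1468 and DESeq2 1063, and these tools called 14 higher and 2 lower, and 9 higher and 2 lower. The calls depended on the scaling: on the authors' scale limma called 40 higher and 7633 lower.

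**Figure D3:**
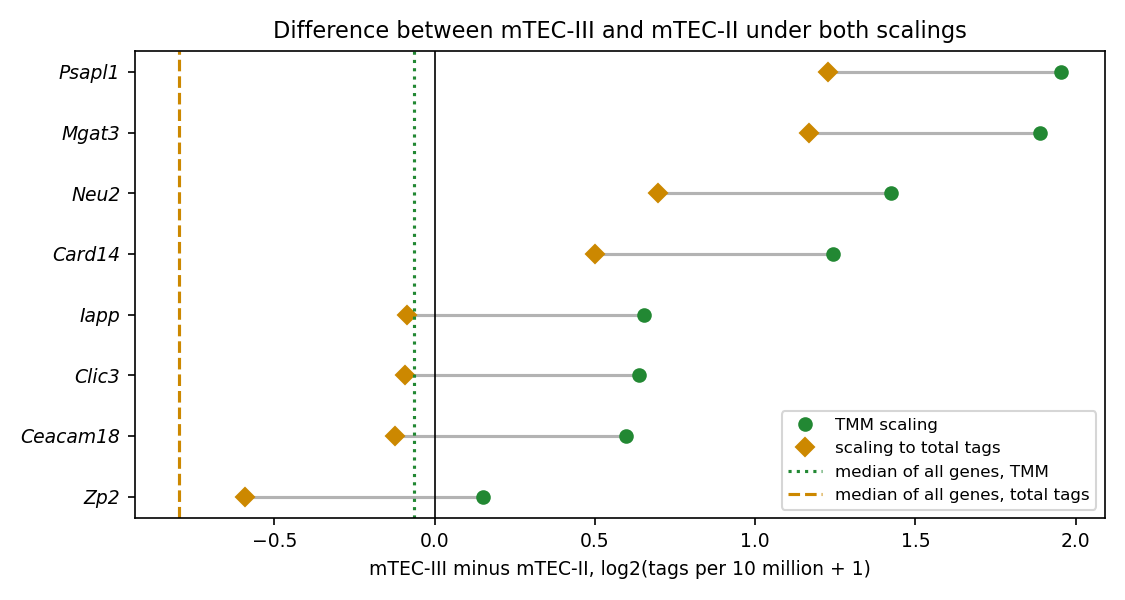
Difference between mTEC-III and mTEC-II (horizontal axis, log2 of tags per 10000000 plus 1) for each gene under TMM scaling (circles) and the authors' scaling to total tags (diamonds); vertical lines mark the medians of all genes, -0.06 and -0.80. Iapp, Clic3, Ceacam18 and Zp2 lie below 0 on the authors' scale and above 0 after TMM scaling.

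The comparison of mTEC-IV with mTEC-I shares no library with the comparison of mTEC-III and mTEC-II, and was tested with limma across all genes. The spread of each gene and the TMM factors were estimated from all 8 libraries. The SE and p-values are therefore not independent of the libraries on which the genes were chosen. *Neu2* was higher in mTEC-IV by 3.61 ± 0.501 (log2, SE; limma adjusted p = 3.99e-05), *Clic3* by 2.76 ± 0.572 (adjusted p = 0.00158) and *Card14* by 1.44 ± 0.267 (adjusted p = 0.000632). *Psapl1* fell by 3.55 ± 0.340 (adjusted p = 7.88e-07). In each of these 4, both libraries of one population lay beyond both of the other. The *Neu2* sum includes the peak at the start, also annotated as an *Ngef* promoter, at 29.8 and 12.8 in mTEC-IV against 0 and 0.54 in mTEC-I. Its intron peak measured 2.90 and 2.13 against 1.33 and 0, so the *Neu2* call cannot be divided between the 2 genes. *Neu2* rested on 2 tags in mTEC-I and 36 in mTEC-IV (whole tags, summed over the 2 libraries), a ratio of 22.6 with an exact 95% interval of 5.82 to 194, and *Clic3* on 3 and 21 tags, a ratio of 8.79 with an interval of 2.62 to 46.0; both intervals cover counting error only, and the fitted log2 values of these genes depend on the pseudocount.

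The other 4 genes did not pass. *Zp2* differed by 0.65 (adjusted p = 0.229), *Mgat3* by 0.38 (adjusted p = 0.4996), *Iapp* by -0.62 (adjusted p = 0.126, and 0.0353 with edgeR) and *Ceacam18* by -0.49 ± 0.683 (adjusted p = 0.658). A wide spread such as that of *Ceacam18* means that a difference was not detectable at this depth. *Ceacam18* and *Zp2* reached the filter only through mTEC-II and mTEC-III, the populations on which the genes were chosen. On the authors' scale *Ceacam18* was at most 3.86 in mTEC-I and mTEC-IV. Among these libraries *Zp2* passed 10 only in mTEC-IV replicate 2 (14.5). Nothing is read from the results of both genes. Across all genes 13.4% were called higher and 8.89% lower in mTEC-IV (2015 and 1341 genes, 60.0% of calls higher). On the authors' scale 30.5% of calls were higher. The 8 were chosen from these same libraries with earlier results known, and a low mTEC-I value may have been part of that choice. Nothing is therefore read from the 3 higher and 1 lower of 8. The median difference of the 8 was 0.51, beside 0.16 over all genes. The summed values of the tuft, T cell, B cell, myeloid and thymic epithelial lists were higher in both mTEC-IV libraries than in both of mTEC-I. Those of the mature mTEC, mesenchymal, islet and oocyte lists were lower, the oocyte sums narrowly (55.2 and 46.3 against 55.6 and 65.2). Single genes went against the sum of their list, among them *Foxn1* and *Dclk1* (lower in both mTEC-IV libraries) and *Aire*, *Pdx1* and *Figla* (higher). The part of these lists in the 4 calls was not tested.

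**Figure D4:**
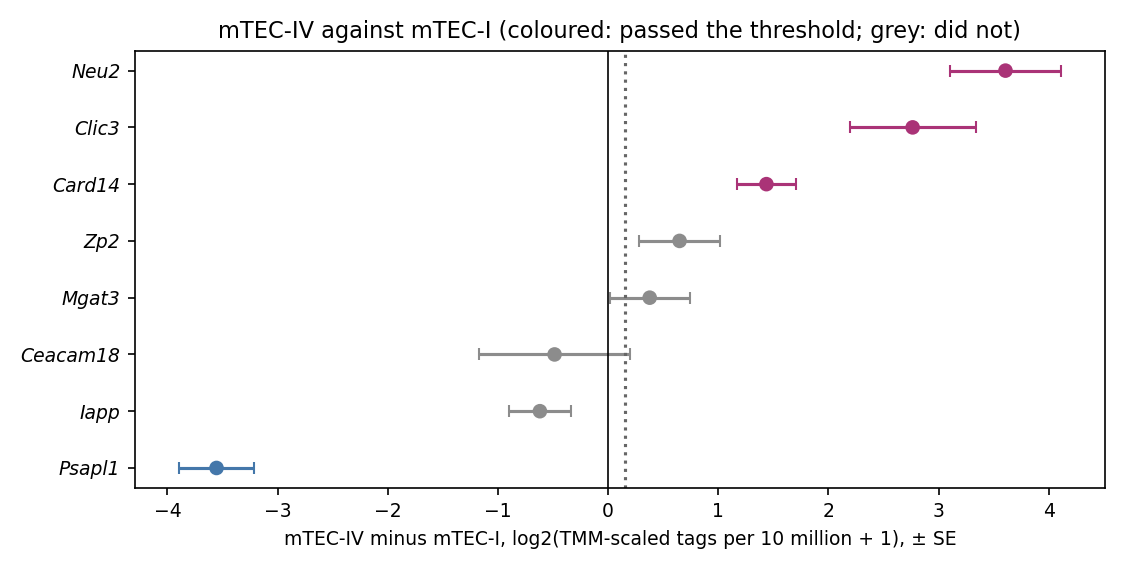
Difference between mTEC-IV and mTEC-I (horizontal axis, log2 of TMM-scaled tags per 10000000 plus 1, with SE) for each gene; the dotted line is the median of all genes, 0.16. Neu2 (with the peak also annotated to Ngef), Clic3 and Card14 passed the threshold as higher and Psapl1 as lower, and the 4 grey genes did not pass.

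The nearest tested genes on either side of each of the 8 (16 in all, with peaks at 6.86 to 1668 kb) were not selected. None was called between mTEC-III and mTEC-II by limma, edgeR or DESeq2, where limma called 0.00663% of all genes higher and 0% lower. An unadjusted p under 0.05 was had by 1846 of all 15085 genes with limma, and by none of these 16. Their TMM-scaled log2 differences ran from -0.52 (*Slco1a5*, whose intron holds the *Iapp* peak) to 0.57 (*Ctu1*, beside *Ceacam18*), with a median of -0.06. *Ctu1* was the 1 neighbour of 16 with both mTEC-III libraries above both mTEC-II libraries, at 51.1 and 53.0 against 26.4 and 45.4, beside 14.7% of all genes tested. *Ngef*, from its other peaks, differed by -0.26 ± 0.614, and *Sorcs2*, which surrounds the *Psapl1* peak 1025 bp before the start, by -0.50 ± 0.264.

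**Figure D5:**
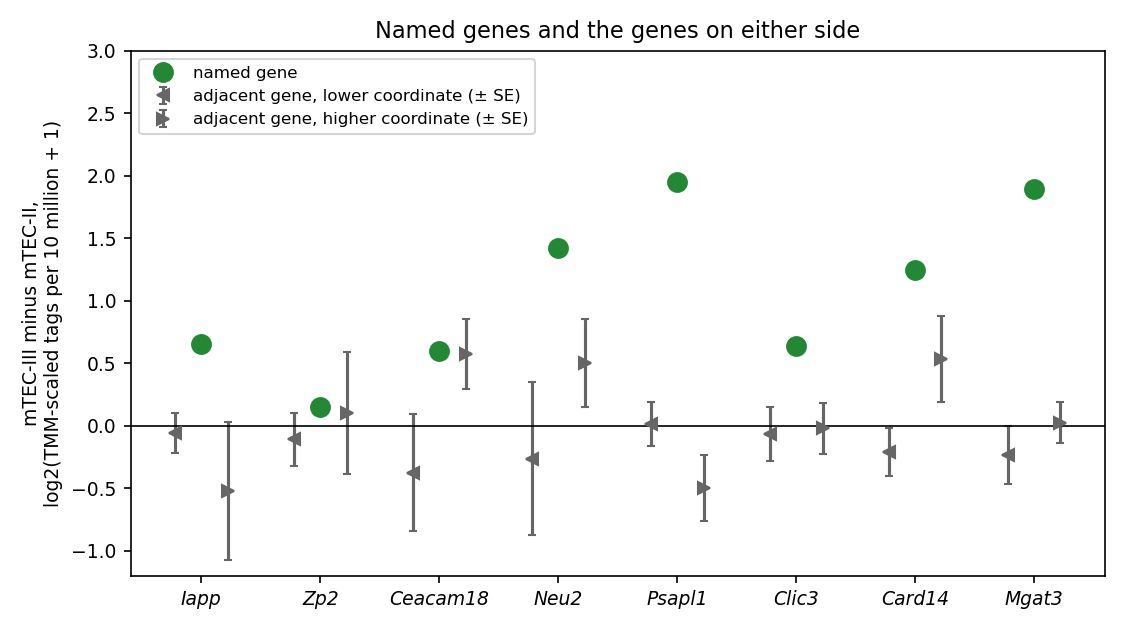
Difference between mTEC-III and mTEC-II (vertical axis, log2 of TMM-scaled tags per 10000000 plus 1) of each named gene (circles, chosen on this contrast) and of the genes on either side (triangles, with SE). The 16 neighbours lie between -0.52 and 0.57.

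Over all genes tested limma called 0.00663% higher and 0% lower in mTEC-III than in mTEC-II, so few calls were to be had. Of 66 genes related to the 8 by family or by pathway, 35 were tested, and none was called by any of the 3 tools. Their median was -0.09, beside -0.06 over all genes, with 12 above 0 and 23 below. The 7 tested genes of the islet hormone and granule list, *Calcb* and *Adm* among them, ran from -0.79 to 0.21. The 6 of the zona pellucida list ran from -1.195 (*Tecta*) to 0.76 (*Zp3r*), with *Zp1* at 0.53 and *Zp3* at -0.30, and also held *Zpbp* and *Zpbp2*. The 3 CEACAM genes ran from -0.14 to 0.62. The 2 sialidases were at 0.00477 and 0.12, the 2 saposin genes at -0.19 and 0.19, and the 4 CLIC genes ran from -0.17 to 0.65. All 5 tested genes of Card14 signalling were below 0 (median -0.32), as were 4 of 5 MGAT transferases and the fucosyltransferase gene *Fut8* (-0.09). The 4 with an unadjusted p under 0.05, named after their values were seen, all had negative differences: *Adm* (-0.68), *Malt1* (-0.70), *Tnfaip3* (-0.32) and *Mgat5b* (-0.71). At this level limma had 1846 of all 15085 genes tested, and nothing is read from these 4. Among 30 other tissue antigens, which are not relatives, 13 were tested and none was called by any of the 3 tools, with a median of -0.16, 3 above 0 and 10 below; *Mog* (-0.58) was the 1 with an unadjusted p under 0.05.

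Across the 8 libraries the mean profile of the 8 genes was like those of *Gpx1* (r = 0.984), *Ly6g6c* (0.966), *Snhg8* (0.953) and *Bcl2a1d* (0.951), a ranking by Pearson correlation given without a test. The libraries are grouped in 4 pairs and share the scaling, so r describes a likeness of order only. *Ly6g6c*, of the Ly6 family, measured 44.5 and 44.8 in mTEC-III against 4.89 to 19.5 in the other libraries. *Gpx1*, a glutathione peroxidase, measured 110 and 117 against 71.6 to 96.9. The ranking and these values are on the TMM scale only. On the authors' scale both mTEC-III libraries of *Gpx1* lay below those of mTEC-II and mTEC-I. The 8 were not uniform: *Zp2* and *Ceacam18* correlated at 0.93 with each other, *Neu2* and *Card14* at 0.92, while *Neu2* and *Psapl1* stood at -0.64, and the r with the mean profile of all 8 was -0.12 for *Psapl1* and 0.01 for *Mgat3*.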

How the data were processed

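ATAC-seq of 4 sorted mTEC populations, 2 libraries each, was used as deposited. The submitters' processing notes name HOMER, Picard 1.108, bcl2fastq 2.15.0.4 and the mm9 build. An aligner, the handling of duplicates and a transposase offset of reads are each not given in the sources used here. HOMER findPeaks was run by the authors on each library, per the file headers (fragment length 300 bp, false discovery rate 0.001, 4-fold over the surrounding 10000 bp); these lists carry a deposited score and a normalized signal per peak. The merged table holds the authors' signal, tags per 10000000 total tags, for each library, with the distance to the nearest TSS and an annotation. All values (100%) were whole multiples of 1 read end, 0.5 tags being 1 end, within the deposited 2 decimals.

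Peaks within 10 kb of the TSS of the gene the authors named were summed. TMM-scaled values were tested as log2(value + 1) with limma 3.58.1 (R 4.3.3), replacing the planned count test because the values are scaled; edgeR 4.0.16 and DESeq2 1.42.0 on the recovered read ends are alternatives. Genes reaching 10 tags per 10000000 in 2 or more libraries were tested (15085). All 8 genes passed, *Ceacam18* and *Zp2* only through mTEC-II and mTEC-III. The fit had 1 coefficient per population over all libraries, with Benjamini-Hochberg adjustment at 0.05. Ends of 1 fragment are not independent. The procedure was run on simulated data with the scaling given and the ends drawn independently. That run does not bear on the scaling or on the dependence between ends. The genes described and all lists were chosen with earlier results of these data known. The genes to name were set by rule: the 8, the nearest tested gene on either side, up to 4 called relatives per family (none was called) and the 5 most alike in profile (1 of them is not reported here), leaving out predicted and small RNA genes. Gene names of transcripts come from RefSeq (GRCm38.p6). The main fit did not pair libraries by replicate number. Deviations of the replicate 1 libraries from their population means correlated at -0.041 to 0.056. Such correlations do not settle whether libraries of equal number were handled together.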

Additional observations from a re-analysis of the deposited data

How the results depend on the processing

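The 4 calls between mTEC-IV and mTEC-I held under every alternative that gave a value. *Neu2*, with the peak also annotated to *Ngef*, ran from 2.21 to 4.43 and *Card14* from 1.09 to 1.65. *Clic3* ran from 1.49 to 3.76 and *Psapl1* from -4.44 to -3.13. Among the others, *Iapp* was called with edgeR and *Zp2* with peaks at any distance. *Ceacam18* turned to 0.045 with peaks at any distance and to 0.71 without mTEC-IV replicate 1 (-1.697 to 0.71 leaving out 1 library), and *Mgat3* to -0.22 within 1 kb and -0.15 at any distance. Between mTEC-III and mTEC-II, the authors' scaling turned *Iapp* (-0.087), *Zp2* (-0.59), *Ceacam18* (-0.12) and *Clic3* (-0.092). *Zp2* ran from -0.010 to 0.31 leaving out 1 library, the lowest without mTEC-III replicate 2. *Neu2*, *Psapl1*, *Card14* and *Mgat3* stayed above 0 in all 18 alternatives, which is a description, since the 8 were chosen on this contrast. Peaks at any distance took *Ceacam18* from 0.60 to 0.076 and *Zp2* from 0.15 to 0.086, and peaks within 1 kb took *Card14* from 1.24 to 0.60; *Mgat3* went from 1.89 to 1.25 and 1.16. Leaving out 1 library, *Clic3* ran from 0.28 (without mTEC-II replicate 1) to 1.05 (without mTEC-II replicate 2), *Iapp* from 0.40 to 0.91 and *Ceacam18* from 0.33 to 0.87 (both lowest without mTEC-III replicate 1 and highest without replicate 2). The median of the 8 was 0.21 on the authors' scale. Within 1 kb a median of 1.29 covers only the 4 genes with a peak there, whose median within 10 kb was 1.66.

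Genes called higher in mTEC-III than in mTEC-II numbered 1; the authors' scaling gave 40, TMM factors from promoter peaks 3, a pseudocount of 5 gave 5, no filter 0, peaks within 1 kb 0, peaks at any distance 64, edgeR 14 and DESeq2 9, and leaving out 1 library gave 0 to 63 (63 without mTEC-III replicate 2, 10 without mTEC-II replicate 2). Genes called lower numbered 0; these alternatives gave 7633, 1, 2 and, at any distance, 17, with 2 for edgeR and 2 for DESeq2, and leaving out 1 library 0 to 473 (473 without mTEC-III replicate 2). Genes higher in mTEC-IV than in mTEC-I numbered 2015, with 772 on the authors' scale, 721 within 1 kb, 3637 at any distance and 664 to 2501 leaving out 1 library. Genes lower numbered 1341, with 502 within 1 kb, 2942 at any distance, 2261 with edgeR and 530 to 1610 leaving out 1 library. The cause of these changes was not tested. Each leave-one-out fit assumes that the lone library varies like the others. With the replicate block, 1 gene was higher and 0 lower in mTEC-III, and 1944 were higher and 1308 lower in mTEC-IV; it changed no call of the 8 genes. Values of *Ceacam18*, *Neu2* and *Clic3* in mTEC-I rest on at most 3 tags per library, and changes there are not detectable at this depth unless large.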
